A study of Mus musculus with 24 samples.

Results

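Snora21 is a small nucleolar RNA (snoRNA) of the H/ACA class, and its counts were followed over all 24 libraries of a small RNA sequencing study of mouse cells. It is 1 of 55335 gene rows in the deposited count table, found by matching the Ensembl identifier ENSMUSG00000064901 to the GENCODE mouse annotation. The gene was chosen by its measured levels in the knock-in neural progenitor libraries, so those levels are described below without a test, and tests are kept for the comparisons that the choice did not use. The cells were mouse embryonic stem cells, abbreviated mESC, and the neural progenitors (NPC) that were derived from them, and the study set out to relate the CAG repeat of Htt, the huntingtin gene mutated in Huntington's disease, to RNA content. Each cell type was represented by an Htt knockout (KO), wild type (WT) and 4 knock-in lines (Q20, Q50, Q92, Q111), heterozygous for an Hdh allele (the older name of Htt) whose CAG repeat number gives the line its name. The growth protocol gives 89 repeats for the line whose samples are titled Q92. The mESC were kept with leukemia inhibitory factor on a feeder layer of irradiated CF-1 mouse fibroblasts, and the NPC on laminin with FGF and EGF. The origin of the KO and WT lines is not described in the labels used here. Each of the 12 groups had 2 libraries, called biological samples in the design text. Nothing says that they came from separate derivations, so p-values measure the spread between these libraries, which may be technical.

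H/ACA snoRNAs guide the conversion of uridine to pseudouridine in ribosomal and other RNAs. Each folds into a pair of hairpins joined by a hinge that carries the H box, followed by an ACA box next to the 3′ end, and is held by the proteins dyskerin (Dkc1), Nop10, Nhp2 and Gar1. Most mammalian H/ACA snoRNAs are not transcribed from a promoter of their own but are trimmed out of introns of host genes, many of which encode ribosomal proteins. Snora21 is of this kind, with a host, Rpl23, that encodes a protein of the large ribosomal subunit.

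The annotated Snora21 lies at chr11:97781639-97781775 on the minus strand of GRCm38 and is 137 bases long. It sits in intron 2 of the Rpl23 transcript Rpl23-201, which spans 343 bases (chr11:97781463-97781805). It begins 30 bases after exon 2 and ends 176 bases before exon 3 of the 5 exons, and 0 other annotated exons overlap it on either strand. The RefSeq annotation of the same assembly starts it 9 bases further downstream, at a length of 128 bases. The transcript is shown first with matches to the box motifs of the H/ACA class: the capitals mark 2 overlapping matches to ANANNA, the letters of the H box (N is any base), and the ACA box.

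Snora21, motif matches in capitals: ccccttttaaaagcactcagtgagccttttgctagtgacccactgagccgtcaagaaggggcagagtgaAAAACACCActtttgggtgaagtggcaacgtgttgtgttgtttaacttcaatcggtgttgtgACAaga

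**Figure D1:**
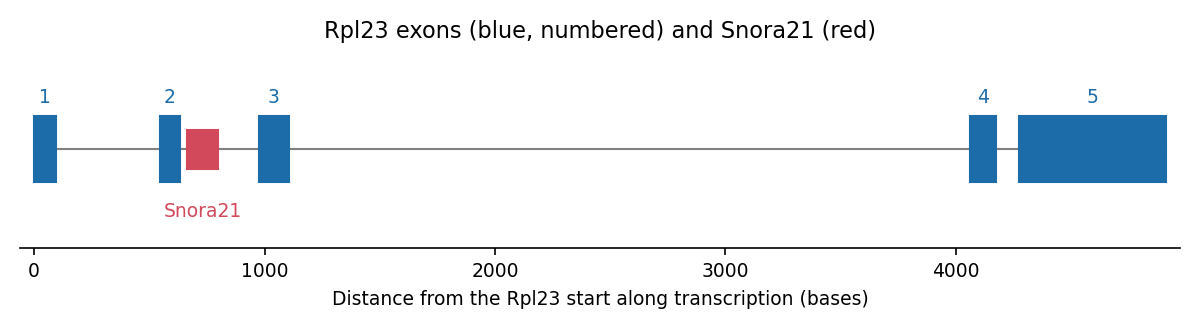
Position of Snora21 in its host gene. The axis is the distance in bases from the start of Rpl23 along transcription, blue boxes are exons 1 to 5 and the red box is Snora21. Snora21 lies within intron 2, 30 bases after exon 2.

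RNAfold predicted a minimum free energy of -38.4 kcal/mol, with a first hairpin domain over positions 1 to 61 and a second over positions 66 to 133. Positions are counted from 1 at the 5′ end. The motif ANANNA, searched on the transcript's own strand only, matched at 4 places. The matches at 70 and 73 overlap each other and lie near the start of the second predicted domain, not in the unpaired bases between the domains. The match at 10 lies in the first domain and that at 132 at the 3′ end. Which match serves as the H box was not tested. The ACA box at 132 to 134 stands 3 bases from the 3′ end, and it overlaps the last ANANNA match. Of the 1507 snoRNA transcripts in the annotation, 18.3% have ACA at that distance, whereas 91.5% hold ANANNA somewhere, so that motif alone sets few snoRNAs apart.

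Snora21 has a near-identical copy annotated as Gm23795 at chr7:68952100-68952236, on the minus strand, and both are shown because reads could be shared between them. Over 137 bases the copies are identical at 134 (97.81%) and differ by C52T, G68C and G109A, written with the Snora21 base, its position and the Gm23795 base. The capitals mark these bases.

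Snora21: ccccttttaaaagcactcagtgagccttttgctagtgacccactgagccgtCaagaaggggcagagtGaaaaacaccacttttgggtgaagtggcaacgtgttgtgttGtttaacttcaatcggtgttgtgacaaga

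Gm23795: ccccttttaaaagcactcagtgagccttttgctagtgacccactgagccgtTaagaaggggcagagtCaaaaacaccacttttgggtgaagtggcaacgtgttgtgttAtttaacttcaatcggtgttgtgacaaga

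Of the 108 stretches of 30 bases in Snora21, 33 (30.6%) also occur in Gm23795, and of the 88 stretches of 50 bases, the stated read length, 2 (2.27%) do. No other annotated transcript shares one. Gm23795 received 4 counts over all 24 libraries against 9105 for Snora21. How reads that fit both were counted is not given in the sources used here.

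Total counts ranged from 642384 to 2360434 in the 12 mESC libraries and from 342022 to 682113 in the 12 NPC libraries, well below the reads per sample that the labels state. As a check of the labels, Htt itself had 3 and 2 counts in KO mESC against 8 and 8 in WT mESC, and 1 and 1 in KO NPC against 9 and 2 in WT NPC. The knock-in libraries had 0 to 9 Htt counts, with 0 in Q50 mESC replicate 2 and Q111 NPC replicate 2, so counts this low do not set the KO libraries apart. A list of 15 stem cell markers summed to between 1234 and 3678 CPM (counts per 1000000 of the scaled library total) in mESC and to at most 2.29 CPM in the 10 NPC libraries other than Q20. The Q20 NPC libraries stood apart with 333 and 354 CPM, 10 of the 15 markers having a count, while Dppa5a, Esrrb, Mir294, Nanog and Zfp42 were at 0. Their 11 neural progenitor markers summed to 122 and 147 CPM, against 284 to 968 CPM in the other NPC libraries. The NPC knock-in differences from Q20, for Snora21, the other Snora rows and the histone genes, are therefore also given from WT. A list of 8 feeder fibroblast markers summed to 10.8 to 28.2 CPM in mESC, with Col1a1, Col1a2, Col3a1 and Postn at 0.

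In mESC, Snora21 was well counted in every library, and it did not separate the genotypes. KO libraries had 173 and 712 CPM (replicates 1 and 2), WT had 278 and 844 CPM, and Q20 had 418 and 546 CPM. Q50 had 137 and 334 CPM, Q92 had 193 and 781 CPM, and Q111 had 337 and 621 CPM. These levels rest on 237 to 867 Snora21 counts per library. Replicate 2 was higher than replicate 1 in 6 of 6 lines, and the ranges of all 6 groups overlapped with those of their neighbours in order of mean level. That order was WT at 561 ± 400 CPM (SD, n = 2 for each group), Q92 at 487 ± 415, Q20 at 482 ± 90.7, Q111 at 479 ± 201, KO at 442 ± 382 and Q50 at 235 ± 140. In such bulk samples fewer cells with the RNA and less RNA per cell cannot be told apart.

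**Figure D2:**
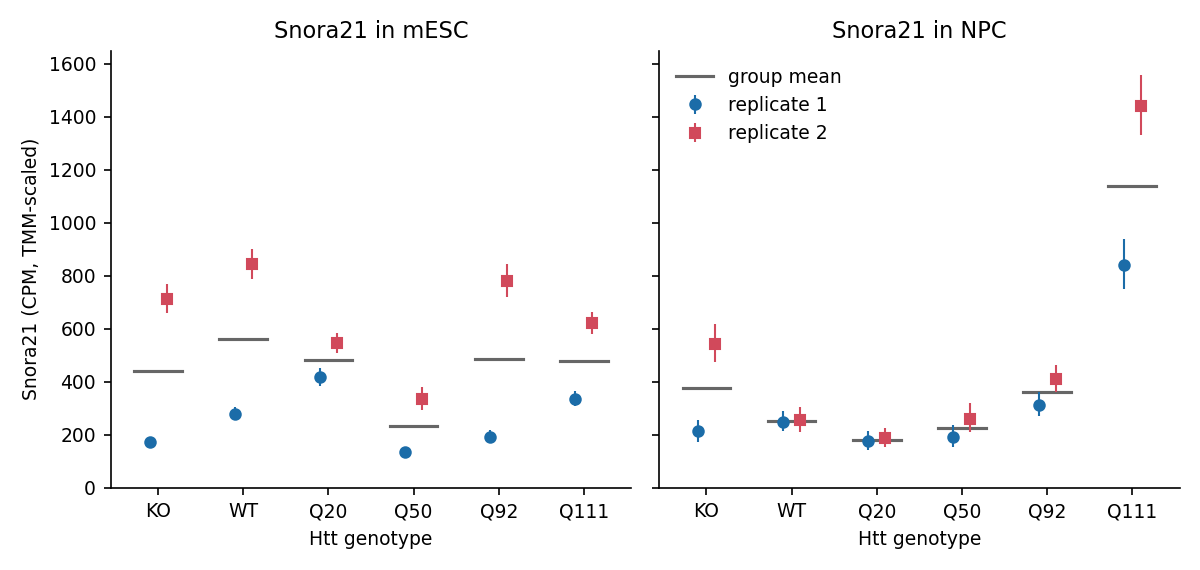
Snora21 level in each library. The vertical axis is TMM-scaled CPM, circles are replicate 1, squares are replicate 2, grey lines are group means and bars are exact 95% Poisson intervals of the count. The Q111 NPC libraries, at 842 and 1441 CPM, lie above the other 10 NPC libraries, while mESC replicates lie far apart in most lines.

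The gap between mESC replicates exceeded counting error in every line. Replicate 2 was 4.13 times replicate 1 in KO (exact 95% interval 3.61 to 4.72), 4.03 times in Q92 (3.50 to 4.65) and 3.03 times in WT (2.71 to 3.39). It was 2.44 times in Q50 (2.05 to 2.91), 1.84 times in Q111 (1.66 to 2.05) and 1.31 times in Q20 (1.17 to 1.46). The intervals cover counting error only, as the counts come without molecular identifiers. Summed, the other Snora rows did not show this gap to the same size: their level differed between replicates by 0.893 to 1.61 times in mESC. Single rows varied more. In replicates 1 and 2, Snora73b had 25.1 and 80.6 CPM in Q92 and Snora69 had 24.1 and 58.2 CPM in Q111. Snora31 went the other way in WT, with 370 and 238 CPM. The summed histone genes differed by 1.09 to 2.23 times.

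**Figure D3:**
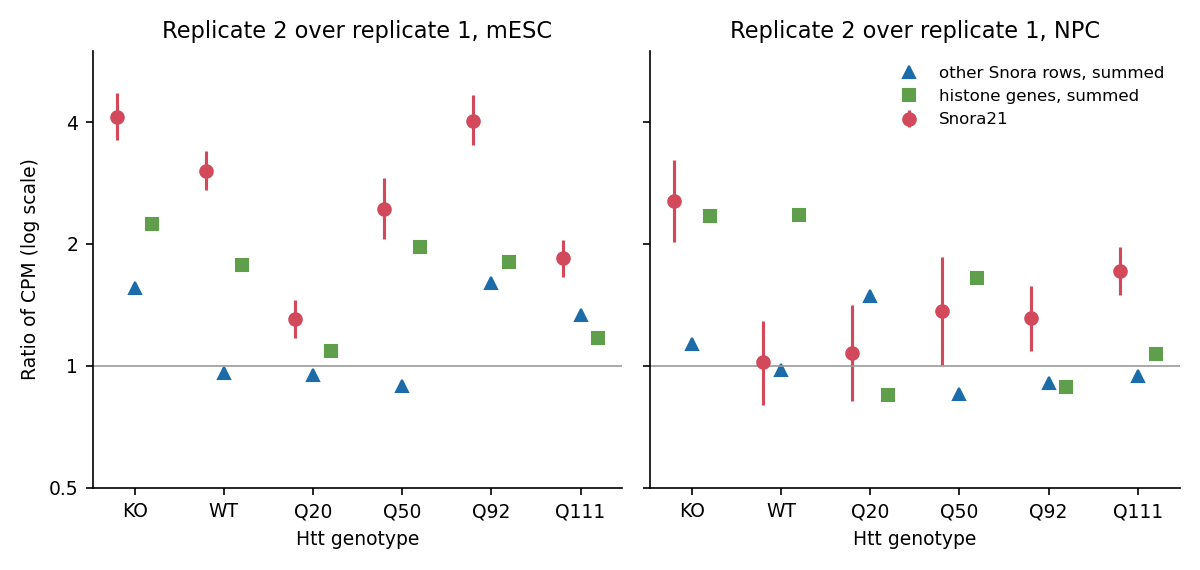
Replicate 2 divided by replicate 1 for each line. The vertical axis is the ratio of CPM on a log scale, red circles are Snora21 with exact 95% intervals, blue triangles the other Snora rows summed and green squares the histone genes summed. In mESC the Snora21 ratio lies between 1.31 and 4.13, above that of the summed other Snora rows in each line.

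Other properties of the mESC libraries moved with this gap. Without Q20, the replicate 1 libraries had totals of 2134729 to 2360434 counts and the replicate 2 libraries 642384 to 1149003, whereas the Q20 libraries had 1795879 and 1901042. Rows longer than 200 bases took 16.7% to 26.7% of counts in those replicate 1 libraries, 26.4% to 32.9% in replicate 2 and 23.0% to 23.2% in Q20. Over the 12 mESC libraries, the Snora21 level had a Pearson correlation of -0.71 with the total count and 0.51 with the share on long rows, and of -0.064 with the summed level of the other Snora rows. These points share libraries and a scaling, and the part of depth or length makeup in the Snora21 level was not tested.

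No mESC comparison called Snora21. In KO against WT it differed by -0.31 ± 0.71 on the log2 scale (SE, adjusted p 1.00 by edgeR's quasi-likelihood test with Benjamini-Hochberg adjustment), where 0 of 1766 genes were called (0%), 18 had an unadjusted p under 0.05 and DESeq2 called 0. Within replicate 1 the log2 difference was -0.69 and within replicate 2 it was -0.25, and it turned to 0.31 without KO replicate 1 and to 0.57 without WT replicate 2. In Q20 against WT the difference was -0.14 ± 0.71 (edgeR adjusted p 0.998), beside 1 gene called of 1766 (0.0566%). There 88 genes had an unadjusted p under 0.05 and DESeq2 called 9. The Snora21 difference was 0.59 within replicate 1 and -0.63 within replicate 2.

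The longer repeats were each compared with Q20, so these comparisons share the Q20 libraries. Snora21 in mESC differed from Q20 by -1.10 ± 0.72 in Q50 (log2 ± SE, edgeR adjusted p 0.873), and both Q50 libraries lay below both Q20 libraries, though scaled by library totals they overlapped (141 and 369 CPM in Q50, 325 and 437 CPM in Q20). Called genes numbered 0 of 1766 (0%), with 98 at an unadjusted p under 0.05 and 2 by DESeq2. In Q92 the difference was -0.04 ± 0.71 (edgeR adjusted p 0.999), with -1.11 within replicate 1 and 0.52 within replicate 2. In Q111 it was -0.21 ± 0.71 (edgeR adjusted p 0.999), with -0.31 within replicate 1 and 0.18 within replicate 2. In both comparisons 0 genes were called (0%), 51 and 60 had an unadjusted p under 0.05, and DESeq2 called 1 in each. The Q92 and Q111 libraries lay on both sides of the Q20 libraries.

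Over the 8 knock-in mESC libraries, Snora21 had a slope of 0.012 ± 0.064 log2 units for every 10 repeats (SE, edgeR adjusted p 1.00). Of 1487 genes, 0 were called (0%), 48 had an unadjusted p under 0.05 and DESeq2 called 0. The slope was -0.020 within replicate 1 and 0.065 within replicate 2, and its sign was negative without Q50 replicate 1 (-0.0068), Q92 replicate 2 (-0.026) or Q111 replicate 2 (-0.010). An SE near 0.06 per 10 repeats limits what these 8 libraries can show of a small slope.

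In NPC, Snora21 was highest in Q111, and by mean CPM with TMM scaling over all 24 libraries it was lowest in Q20. KO libraries had 213 and 543 CPM and WT libraries had 250 and 255 CPM. Q20 libraries had 175 and 188 CPM, and Q50 libraries had 192 and 262 CPM. Q92 libraries had 314 and 411 CPM, and Q111 libraries had 842 and 1441 CPM, above every other NPC library. In order of mean, Q111 stood at 1141 ± 424 CPM (SD, n = 2 for each group), KO at 378 ± 233, Q92 at 363 ± 68.8, WT at 252 ± 3.51, Q50 at 227 ± 49.4 and Q20 at 182 ± 9.15. Neighbours in this order overlapped for KO with Q92 and for WT with Q50, while Q111 lay above KO, Q92 above WT, and Q50 above Q20 without overlap. Scaled by library totals, Q50 (176 and 197 CPM) lay below Q20 (210 and 221 CPM), so the order of these neighbours depends on the scaling. Even with TMM, their nearest libraries lay within counting error. They were Q50 replicate 1 at 192 CPM (exact 95% Poisson interval 153 to 238) and Q20 replicate 2 at 188 CPM (156 to 225). A TMM fit of these 2 groups alone gave a log2 difference of -0.0046 for Q50 against Q20.

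NPC KO and WT were not part of the values that chose the gene. Snora21 differed between them by 0.63 ± 0.32 on the log2 scale (SE, adjusted p 0.435 by edgeR's quasi-likelihood test), with KO replicate 1 below and KO replicate 2 above both WT libraries. In this comparison 6 of 441 genes were called (1.36%), 51 had an unadjusted p under 0.05 and DESeq2 called 24. The value was -0.11 without KO replicate 2 and 1.12 without KO replicate 1 (edgeR adjusted p 0.0606), so the KO replicates decide it.

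The knock-in NPC values are a description. Q20 gave 101 and 120 counts and Q50 gave 83 and 93, whereas Q92 gave 207 and 266 and Q111 gave 324 and 630, from libraries of 342022 to 542008 counts. On average the level in Q111 was 6.29 times that in Q20, 5.03 times that in Q50 and 3.15 times that in Q92, and it was 4.52 times WT and 3.02 times KO. The Q111 libraries themselves differed by 1.71 times (exact 95% interval 1.49 to 1.96).

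Fitted against Q20, whose libraries the comparisons share, the log2 difference in NPC (± SE) was 0.07 ± 0.33 for Q50, 1.10 ± 0.32 for Q92 and 2.56 ± 0.33 for Q111. Q20 against WT gave -0.28 ± 0.32. Against WT in place of Q20, the values were -0.21 in Q50, 0.83 in Q92 and 2.28 in Q111, so the sign for Q50 depends on the control. Over all genes the same fits called 17.7% in Q50, 15.9% in Q92, 14.3% in Q111 and 12.7% in Q20 against WT. The fitted slope was 0.28 ± 0.04 log2 units for every 10 repeats, in a fit that called 6.45% of 403 genes, and 0.39 ± 0.06 without the Q20 group. The levels did not climb evenly with the repeat number, as Q20 and Q50 lay within 1.25 times of each other and the steps to Q92 and Q111 held most of the difference.

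Snora21 as a share of all Snora counts was also highest in Q111. The share was 58.7% and 72.0% in the Q111 NPC libraries and 15.2% to 35.7% in the other 10 NPC libraries, and it ranged from 8.79% to 49.5% in mESC. The summed level of the other Snora rows in Q111 NPC was 592 and 560 CPM, at the low end of the NPC range of 560 to 1073 CPM. With the other Snora rows as the scale, the log2 difference of Q111 from Q20 was 2.96. Histone genes moved with these libraries: their sum was 1351 and 1443 CPM in Q111 NPC and 330 to 873 CPM in the other NPC libraries. Rows longer than 200 bases took 21.3% to 21.6% of counts in Q111 NPC and 14.4% to 21.02% in the others. The part of these makeup differences in the Snora21 level was not tested.

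NPC were compared with mESC in the KO and WT lines, which leaves out the knock-in values. The mean level in NPC was 0.854 times that in mESC in KO and 0.449 times in WT. The fitted log2 difference was -0.69 ± 0.46 (SE, adjusted p 0.246 by edgeR's quasi-likelihood test), among 904 genes of which 351 were called (38.8%). Snora21 was called lower in NPC without mESC KO replicate 1 (-1.17, edgeR adjusted p 0.0312), without mESC WT replicate 1 (-1.12, edgeR adjusted p 0.0485) and with no filter on low counts (-1.16, edgeR adjusted p 0.0246). DESeq2 did not call it (-0.69, adjusted p 0.259), and within replicate 1 alone the difference was 0.073.

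The KO effect did not differ detectably between the cell types. The difference of the log2 effects was 0.93 ± 0.92 (SE, edgeR adjusted p 1.00), with 0 of 904 genes called (0%), 36 at an unadjusted p under 0.05 and 0 by DESeq2. It was 2.11 without mESC KO replicate 2 and -0.11 without mESC WT replicate 2. In the knock-in lines the NPC level was 0.377 times the mESC level in Q20, 0.964 times in Q50, 0.745 times in Q92 and 2.38 times in Q111, given as a description. Both Q111 NPC libraries lay above both Q111 mESC libraries, and both Q20 and both WT NPC libraries lay below their mESC libraries. In WT the nearest libraries, at 255 CPM in NPC and 278 CPM in mESC, had overlapping counting intervals. Scaled by library totals, Q111 and Q20 stayed apart, but the WT libraries overlapped, at 245 and 281 CPM in NPC and 220 and 844 CPM in mESC.

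The other H/ACA rows place these values within the snoRNA class. Of 42 rows with a Snora symbol, 19 had a count in any library. Per 1000 bases of length, Snora21 had the highest mean level over the 24 libraries of the 5 most counted Snora rows, at 3181 CPM per 1000 bases. Snora31, in the host Tpt1, had 2341, Snora62, in the ribosomal protein gene Rpsa, had 1156, Snora17 had 634 and Snora23 had 404. Over the 10 NPC libraries without Q111, Snora31 lay above Snora21, at 2304 against 2046 CPM per 1000 bases. Snora21 took 31.7% of pooled Snora counts in mESC and 31.9% in NPC, or 24.0% in NPC without Q111. Of 11 Snora rows inside ribosomal protein genes, 8 had 0 counts. The 3 with counts were Snora21, Snora62 and Snora69 (in Rpl39), and all of them passed the filter on low counts.

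Between NPC and mESC of the KO and WT lines, 6 of the 13 other Snora rows tested were called, 4 higher and 2 lower, beside 21.5% and 17.4% of all genes. Their median log2 difference was 0.53, against 0.02 over all genes. Snora78 rose by 1.70 ± 0.37 (edgeR adjusted p 0.000858), Snora47 by 2.02 ± 0.51 (0.00308), Snora36b by 3.15 ± 0.75 (0.00206) and Snora69 by 1.20 ± 0.38 (0.0161), all with SE. Snora36b rested on 27 counts in NPC and 8 in mESC, Snora47 on 41 and 23, and Snora78 on 38 and 31. Snora69 lost its call in a fit of these groups alone (edgeR adjusted p 0.0541). Snora17 fell by 0.88 ± 0.28 (edgeR adjusted p 0.0164) and Snora73a by 2.04 ± 0.50 (0.0023), the latter on 8 counts in NPC and 87 in mESC. Snora73a belongs to a snoRNA family that acts in the cleavage of precursor ribosomal RNA. All of its 30-base stretches recur in other annotated genes and it overlaps an exon of Snhg3, so its value is uncertain. Snora36b overlaps an exon of Mir664, and 34.0% of its 30-base stretches recur in other genes, as do 32.0% of those of Snora17.

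Scaling by library totals instead of TMM shifted the median of all genes in this comparison by 0.35 and gave 258 higher and 108 lower calls against 194 and 157. Under that scaling 6 of the other Snora rows were called higher and 1 lower, and Snora17 lost its call (edgeR adjusted p 0.182). Snora31 (0.21 ± 0.28) and Snora62 (0.53 ± 0.25) were not called in the TMM fit, with edgeR adjusted p of 0.574 and 0.105. Snora73b, at -0.91 ± 0.39, missed the threshold too (edgeR adjusted p 0.0666), and all of its 30-base stretches recur in other genes. Ordered by the TMM values, Snora21 fell between Snora41 and Snora17.

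**Figure D4:**
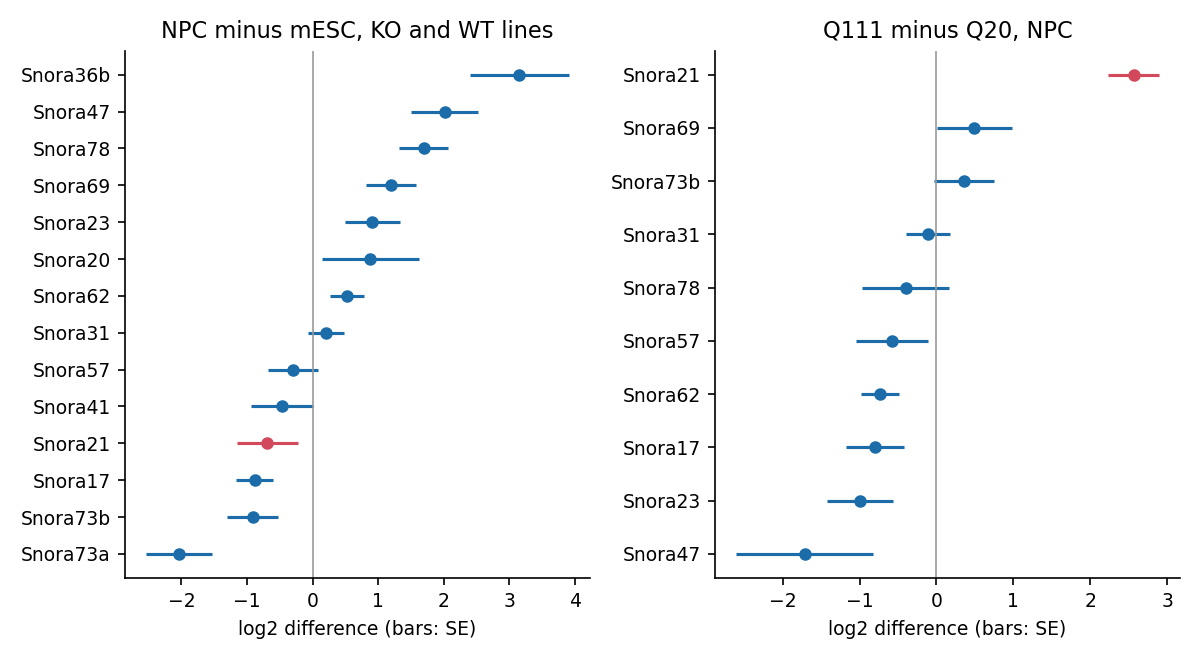
Fitted log2 differences of Snora rows in NPC minus mESC of the KO and WT lines (left) and in NPC Q111 minus Q20 (right). Points are log2 differences, bars are SE, red is Snora21 and blue the other rows; Snora36b is left out on the right because it had 0 counts in Q111. Snora21, at 2.56, lies above the other rows on the right and at -0.69 among them on the left.

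In NPC Q111 against Q20, whose values were among those that chose Snora21, the other Snora rows did not move with it. Of 10 tested, 2 lay above 0 and 8 below, with a median of -0.66 against -0.11 over all genes, or -0.51 with Snora36b, which had 0 counts in Q111, at the bound that 3 counts over the group set. Called rows numbered 0 by edgeR, beside 14.3% of all genes, with 2 at an unadjusted p under 0.05 and 0 by DESeq2. Snora62 had 93.5 and 105 CPM in Q111 and 144 and 171 CPM in Q20, a log2 difference of -0.73 ± 0.25 (SE, edgeR adjusted p 0.0567). The groups did not overlap, and library totals in place of TMM called Snora62 lower. Against WT in place of Q20, edgeR called 0 of the 10 rows higher and 1 lower, beside 22 higher and 26 lower of all 441 genes. The median of the 10 rows was -0.88, against 0.08 over all genes. The row called was Snora62, at -0.81 ± 0.25 (edgeR adjusted p 0.0431). Snora31 had 252 and 204 CPM in Q111 and 158 and 316 CPM in Q20, which overlap. Snora69, the other row in a ribosomal protein gene, had 46.8 and 48.0 CPM in Q111 and 29.5 and 34.5 CPM in Q20 (log2 difference 0.49 ± 0.49, edgeR adjusted p 0.552). In Q92 against Q20, Snora62 rose by 1.00 ± 0.23 (edgeR adjusted p 0.00663), the only call among the 10 rows, beside 15.9% of all genes. Its Q92 libraries had 302 and 283 CPM. Against WT, Snora62 rose by 0.92 ± 0.23 (edgeR adjusted p 0.012) in Q92, and Snora31 fell by 0.97 ± 0.28 (0.0255). That fit called 38 higher and 45 lower of all 441 genes.

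In NPC KO against WT, 0 of the 10 other Snora rows tested were called by edgeR, beside 1.36% of all genes, with 0 at an unadjusted p under 0.05 and 0 by DESeq2. Their median log2 difference was -0.22, against 0.08 over all genes. In each mESC comparison of 2 genotypes 0 of the 13 other rows tested were called by edgeR, beside 0% of all genes, or 0.0566% in Q20 against WT, with 0 to 4 at an unadjusted p under 0.05 and 0 by DESeq2. The mESC median of the list ran from -0.33 in KO against WT to 0.78 in Q50 against Q20, where Snora21 itself was at -1.10.

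The host Rpl23 was barely counted in these small RNA libraries. It had 1 to 9 counts per mESC library and 0 to 2 per NPC library, 69 in all, and other annotated genes hold 25.4% of its 30-base stretches. It passed the filter in mESC only, and its KO against WT difference was -0.14 ± 1.02 (log2 ± SE, edgeR adjusted p 1.00). In mESC it had more counts in replicate 2 than in replicate 1 in 5 of 6 lines, as in KO with 8 and 2, and fewer in Q111 with 6 and 9. Its NPC level in Q111 rested on 1 and 0 counts, too few to set beside that of Snora21.

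The genes of the H/ACA particle were as thinly counted. Of 9 genes for core proteins and assembly factors, 1 passed the filter in mESC and 0 in NPC. This was Dkc1, which encodes dyskerin, the pseudouridine synthase of the particle, with 2 to 28 counts per mESC library and 0 to 5 per NPC library. Its KO against WT difference in mESC was 0.30 ± 0.56 (log2 ± SE, edgeR adjusted p 1.00), and edgeR called it in 0 of the mESC comparisons, with 0 at an unadjusted p under 0.05 and 0 by DESeq2. The core proteins Nop10, Nhp2 and Gar1, the assembly factors Naf1 and Shq1, and Nufip1, Ruvbl1 and Ruvbl2, which act in snoRNP assembly, had at most 8 counts in any mESC library and at most 3 in any NPC library.

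The genes whose pattern was most like that of Snora21 were histone genes in NPC and a mixed group in mESC. Likeness was the Pearson correlation of log2(CPM + 1) over the 12 libraries of a cell type, among genes that passed the filter and had a mean of at least 10 CPM. In NPC, over 415 genes with a median correlation of -0.058, the leaders were Hist1h2bh (0.872), Hist1h3b (0.872), Hist1h2bk (0.803), Hist2h3c2 (0.789) and Hist1h4b (0.787), which encode core histones. By Spearman's rank correlation these 5 had, in the same order, 0.832, 0.895, 0.818, 0.909 and 0.594. In mESC, over 500 genes with a median of 0.039, they were the nuclear long noncoding RNA Malat1 (0.892), the microRNA gene Mir296 (0.892), Hist1h3b (0.890), Eif4a1, which encodes a translation initiation helicase (0.875), and Hist1h4c (0.873). These points share libraries, depth and scaling, and no p is attached to them. The Eif4a1 row overlaps the small genes Gm22988 and Gm24029, and the Malat1 row overlaps Gm27694 and, on the other strand, Gm37376. Between 22.4% and 77.2% of the 30-base stretches of the histone rows named recur in other genes.

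Hist1h3b, a histone H3 gene, was among these in both cell types. In mESC it stood at 25.3 to 53.8 CPM in the replicate 1 libraries other than Q20, at 73.1 and 59.9 CPM in Q20, and at 145 to 299 CPM in the other replicate 2 libraries. In NPC it had 504 and 537 CPM in Q111 and 32.9 and 45.4 CPM in Q20. The groups named were apart, as they were for Snora21 in NPC Q111. Other annotated genes hold 62.1% of the 30-base stretches of Hist1h3b, so its counts are uncertain as those of a single gene. Of the 15 histone genes tested in NPC Q111 against Q20, edgeR called 4 higher and 0 lower, beside 6.12% and 8.16% of all genes, with a median log2 difference of 1.06 against -0.11. These 4 were Hist1h2bh, Hist1h3b, Hist1h2bk and Hist2h3c2, which also lead the NPC likeness list. That list was picked by correlation with Snora21, which was highest in Q111, so these calls are no independent test. Against WT in place of Q20, edgeR called 6 of the 15 higher, those 4 among them, and 0 lower. Over all 441 genes it called 22 higher and 26 lower. The histone median was 1.41, against 0.08 over all genes. The list was examined with its likeness to Snora21 known. In NPC against mESC of the KO and WT lines, 0 of 31 histone genes were called higher and 13 lower by edgeR, beside 21.5% and 17.4% of all genes.

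**Figure D5:**
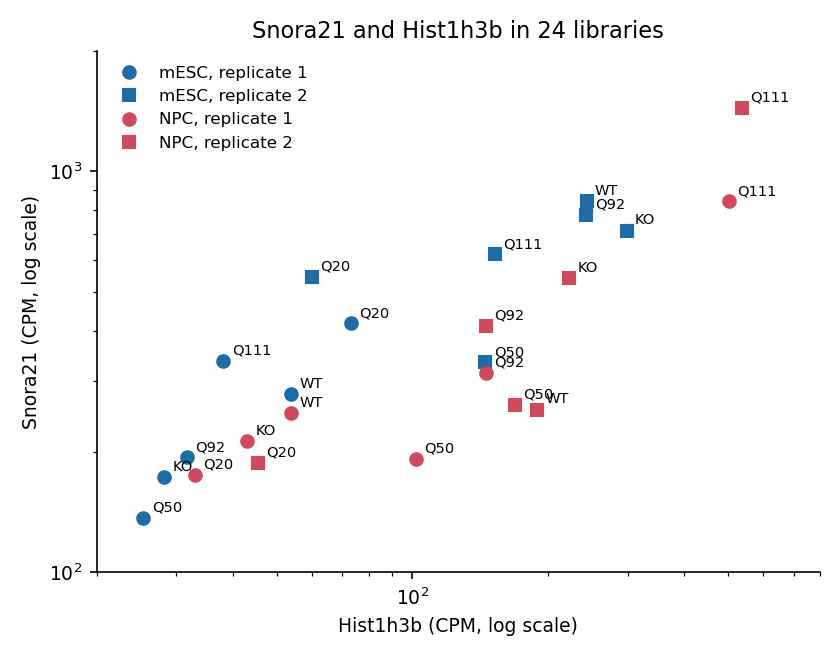
Snora21 against Hist1h3b in each of 24 libraries. Both axes are CPM on a log scale, blue is mESC, red is NPC, circles are replicate 1 and squares replicate 2, with the genotype beside each point. The Q111 NPC libraries, at 504 and 537 CPM of Hist1h3b, lie at the upper right, and mESC replicate 2 libraries lie above replicate 1 on both axes in every line except Q20.

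The genes most like Snora21 were picked by that correlation, so the other Snora rows could not exceed them. Over the mESC libraries, the correlation of Snora21 with the other Snora rows ran from -0.42 for Snora57 to 0.52 for Snora73a. Snora73b stood apart at 0.871, beside 0.873 for Hist1h4c. Over the NPC libraries the correlation ran from -0.68 for Snora17 to 0.066 for Snora73b. All 30-base stretches of Snora73a and Snora73b recur in other genes, so their values are uncertain. With the summed histone level, the Snora21 level had a correlation of 0.664 over the 12 mESC libraries and 0.894 over the 12 NPC libraries. By Spearman's rank correlation it was 0.552 in mESC and 0.601 in NPC. The NPC Pearson value draws on the Q111 libraries, which were highest in both.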

How the data were processed

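Small RNA was sequenced as single 50-base reads. The authors deposited whole-number counts per gene, not normalized. Per the submitters' processing notes, CASAVA 1.8, STAR, HTSeq and GRCm38.p6 were used. Trimming, strand and the treatment of multiply mapped reads are not given in the sources used here. Samples titled Q92 took the 4 columns called Q89. Of the identifiers, 55154 matched GENCODE mouse M21, and the other 181 held 57 counts. CPM is the count per 1000000 of the TMM-scaled library total.

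Tests used edgeR 4.0.16 (R 4.3.3) with glmQLFit and glmQLFTest, on genes kept by filterByExpr (minimum count 10, minimum total 15). Fits took the 12 libraries of a cell type, all 24 between cell types, or the 8 knock-in libraries for a slope. P-values were adjusted by Benjamini-Hochberg over all genes tested, with calls at an adjusted p under 0.05. Alternatives were DESeq2 1.42.0, other scalings, no filter, a replicate block, only the groups compared, and each library left out. Scripts were tested on simulated counts. RNAfold 2.7.2 gave the fold. Differences between replicates correlated by over 0.1 in 10 of 15 pairs of mESC groups, those without Q20, and in 4 of 15 in NPC. Since not every pair did, the fits carry no replicate block, and the block is an alternative.

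Members and lists were chosen with earlier results of these data known. Named were Rpl23, genes sharing a 30-base stretch with Snora21, 9 H/ACA particle genes, the 5 Snora rows of highest mean CPM, those in ribosomal protein genes passing the filter, the 3 of smallest p per direction in NPC against mESC, and the 5 genes most like Snora21 per cell type. Snora41 and Snora57 were named after their values were seen.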

Additional observations from a re-analysis of the deposited data

Results flagged for a closer look

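By TMM-scaled CPM, Snora21 moved in opposite directions between the cell types in different lines, with every library of each group on its side. Both Q111 NPC libraries lay above both Q111 mESC libraries, and in WT and in Q20 both NPC libraries lay below both mESC libraries. In WT the gap was small beside counting error. NPC replicate 2 had 255 CPM (exact 95% Poisson interval 212 to 304) and mESC replicate 1 had 278 CPM (254 to 304). The ratio of NPC to mESC mean CPM was 2.38 in Q111, 0.449 in WT and 0.377 in Q20, so that in Q111 was 5.30 times that in WT and 6.33 times that in Q20. Scaled by library totals in place of TMM, the Q111 and Q20 libraries stayed apart, but the WT libraries overlapped (245 and 281 CPM in NPC, 220 and 844 CPM in mESC). Likewise both Q50 libraries lay above both Q20 libraries in NPC and below them in mESC, and the Q50 to Q20 ratio in NPC was 2.56 times that in mESC. In NPC the nearest of these libraries, at 192 CPM in Q50 and 188 CPM in Q20, lay within counting error. The pattern also did not hold with library totals. In NPC Q50 had 176 and 197 CPM against 210 and 221 CPM in Q20, and in mESC Q50 had 141 and 369 CPM against 325 and 437 CPM. The differences that involve Q111, Q50 or Q20 were not tested, since the NPC knock-in values chose the gene. For WT alone, NPC against mESC gave a log2 difference of -1.15 ± 0.66 (SE, edgeR adjusted p 0.221), which was not called. The Q20 NPC libraries are those with stem cell markers of 333 and 354 CPM.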

How the results depend on the processing

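Values below are log2 differences of Snora21, or log2 per 10 repeats for slopes, and the cause of each change was not tested. Of 209 alternative values, 159 kept their direction and side of the threshold (or moved by less than the spread), 26 turned direction, 21 moved further and 3 passed the threshold. The sign differed in 30, since NPC Q50 against Q20 also turned by less than the spread, to -0.15 scaled to the other Snora rows, -0.0038 with no filter, -0.0046 in a fit of the compared groups alone and -0.12 without Q50 replicate 2. With library totals, mESC Q92 against Q20 became 0.0084, mESC Q111 against Q20 0.33, NPC Q50 against Q20 -0.21 and NPC Q92 against Q20 1.33. Scaled to the other Snora rows, Q20 against WT became 0.12 in mESC and 0.087 in NPC, NPC Q92 against Q20 0.88 and NPC Q111 against Q20 2.96. NPC Q20 against WT was -0.42 with DESeq2 size factors and with the DESeq2 test, and -0.56 with no filter. NPC against mESC in KO and WT was -1.16 with no filter. The mESC Q50 against Q20 value was -0.58 with library totals and -1.93 scaled to the other Snora rows. A fit of the compared groups alone gave 0.011 for mESC Q92 against Q20. The NPC slope without the Q20 group was 0.39.

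With the replicate number as a block, mESC Q20 against WT was 0.12 and the mESC slope -0.0059; the block changed no other direction or call of Snora21. In mESC the block narrowed the SE, to -0.37 ± 0.40 for KO against WT (edgeR adjusted p 1.00) and -1.27 ± 0.41 for Q50 against Q20 (edgeR adjusted p 0.150). The correlation behind the pairing check was 0.398 to 0.502 in the 10 mESC pairs without Q20 and -0.0013 to 0.074 in the 5 with it. The block moved genes called from 1 to 25 in mESC Q20 against WT, from 0 to 20 in Q50 and from 0 to 12 in Q111 against Q20, and from 26 to 9 for the NPC slope.

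Chosen after seeing the data were the libraries of 1 replicate number alone, WT as control and all 6 lines. Values of 1 replicate number come from CPM scaled over all 24 libraries, whereas each fit was scaled over its own libraries. They can therefore differ from the main value through scaling as well as through the replicate. For NPC Q20 against WT, both replicate numbers lay below the main value of -0.28. The part of scaling in these shifts was not tested. Replicate 1 alone gave 0.59 for mESC Q20 against WT, -1.11 for mESC Q92 against Q20, -0.020 for the mESC slope, -0.23 for NPC KO against WT, -0.51 for NPC Q20 against WT, 0.84 for NPC Q92 against Q20, 0.23 for the NPC slope and 0.073 for NPC against mESC. Replicate 2 alone gave 0.52 for mESC Q92 and 0.18 for mESC Q111 against Q20, -0.44 for NPC Q20 against WT and 0.48 for NPC Q50 against Q20. With WT as control, NPC Q50 was -0.21 and NPC Q92 0.83.

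Leaving out 1 library at a time gave, in mESC, -1.55 to 0.57 for KO against WT, -0.71 to 0.78 for Q20 against WT, -1.72 to -0.79 for Q50, -1.35 to 0.65 for Q92 and -0.61 to 0.07 for Q111 against Q20, and -0.026 to 0.048 for the slope. In NPC it gave -0.11 to 1.12 for KO against WT, -0.45 to -0.37 for Q20 against WT, -0.12 to 0.36 for Q50, 0.89 to 1.31 for Q92 and 2.36 to 2.93 for Q111 against Q20. It gave -1.22 to -0.21 for NPC against mESC and -0.11 to 2.11 for the KO effect by cell type. A lone library is assumed to vary like the other groups.

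Over the alternatives with the same contrast, genes called ranged from 0 to 25 in mESC Q20 against WT, 0 to 24 in NPC KO against WT, 19 to 76 in NPC Q20 against WT, 28 to 117 in NPC Q50, 21 to 136 in NPC Q92 and 24 to 124 in NPC Q111 against Q20, 6 to 50 for the NPC slope and 280 to 632 in NPC against mESC, with 228 in WT alone and 218 in KO alone. In mESC against Q20 they reached 20 in Q50, 2 in Q92 and 16 in Q111, the mESC slope reached 3 and the KO effect by cell type 1. Library totals gave 24 higher and 54 lower calls in NPC Q111 against Q20, against 27 and 36. With 2 libraries a group, precision is limited by the spread between replicates, which exceeded counting error for Snora21 in every mESC line and in NPC other than WT and Q20.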
